A study of Mus musculus with 8 samples.

Results

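Collagens are the main structural proteins of the extracellular matrix, and this report follows 40 collagen genes in mouse ES cells that were left untreated or differentiated with retinoic acid (RA). The family was set by a naming rule: every symbol of the form Col, number, a, number on the expression array was taken, except *Col4a1* and *Col4a2*, the pair of chains common to all basement membranes. This gave 40 of the 36406 names on the array and 61 of its 55681 probes, and each gene was represented by its brightest probe over all arrays. *Col6a3* and *Col26a1* are not among the names used here.

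The cells were E14 mouse ES cells, a line derived from a mouse blastocyst that self-renews in culture. The study hybridised RNA of 4 biological replicates of untreated cells and 4 of cells collected after 72 h of RA to single-colour Agilent arrays. Per the methods, 1 µM all-trans RA was added in medium without leukemia inhibitory factor (LIF), the cytokine that holds ES cells in self-renewal, and whether the untreated cells were kept with LIF is not given in the sources used here. If they were, the effects of RA and of LIF removal cannot be told apart. The line, E14Tg2A.4 in the methods, descends from cells that lack *Hprt*, and both conditions share this. RNA came from whole cultures, so a change in the share of cells that express a collagen and a change in RNA per cell cannot be told apart.

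Values are log2 intensities of a probe relative to the 75th percentile of its array, so 0 stands for that percentile. They compare 1 probe between arrays, not 1 gene with another. A gene was called higher or lower at an adjusted p under 0.05 and a change above 1.5-fold, with limma's moderated test and Benjamini-Hochberg adjustment over all 55681 probes. On each array 56.7% to 62.7% of spots were well above background, the flag that the scanner software gives a spot clearly brighter than its surroundings, and no spot was saturated. The median of all probes changed by -0.28 on the log2 scale, and by -0.0026 after quantile normalization, and the changes given are not corrected for this shift. All 7 ES cell markers, among them *Pou5f1* and *Nanog*, were well above background in untreated cells and fell after RA, and their summed linear level went from 428 to 601 on the untreated arrays to 42.5 to 115 on the RA arrays. Without *Dppa5a*, the brightest, it went from 252 to 355 to 7.36 to 29.2.

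A collagen is built from chains that wind around each other in a triple helix, which needs glycine at a regular interval along the chain. Fibrillar collagens, such as types I, II, III and V, assemble into the fibrils of skin, bone, tendon and cartilage. FACIT collagens, fibril-associated collagens with interrupted triple helices, sit on the fibril surface. Type IV collagens form the network of basement membranes, type VI collagens form beaded filaments, and short chain collagens form hexagonal networks. Transmembrane collagens span the cell membrane, multiplexins lie in basement membranes, and type VII collagen forms the anchoring fibrils of skin. Fibrillar collagens are made above all by fibroblasts and other mesenchymal cells.

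The glycine repeat can be read in the probes themselves. Of the 61 collagen probes, 3 hold at least 5 glycine codons (GGN) in a row at a spacing of 9 bases, and they are shown here because they print the repeat that defines the family. Capitals mark the glycine codons. The probes lie on the plus strand at chr4:47283786-47283845 (*Col15a1*), chr4:129756457-129756516 (*Col16a1*) and chr3:130270497-130270556 (*Col25a1*) of mm9.
Col15a1 probe: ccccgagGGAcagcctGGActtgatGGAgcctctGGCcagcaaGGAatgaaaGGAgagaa
Col16a1 probe: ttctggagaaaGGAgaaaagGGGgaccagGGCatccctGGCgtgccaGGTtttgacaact
Col25a1 probe: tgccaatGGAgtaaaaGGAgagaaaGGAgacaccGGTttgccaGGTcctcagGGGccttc
The *Col15a1* sequence is the probe used for that gene, while brighter probes stood for *Col16a1* and *Col25a1*. The *Col16a1* probe shown was well above background on no array and the *Col15a1* probe on none of the 7 arrays kept for it, so no change is read from them. The *Col25a1* probe shown, well above background on 7 of 8 arrays, was not called (log2 change 0.09, adjusted p = 0.691).

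After RA, 22 of the 40 collagens rose (55.0%) and 6 fell (15.0%), while 12 were not called. Over all probes of the array 12.9% were called higher and 21.6% lower. Over all 61 collagen probes, brightest or not, 42.6% were called higher and 11.5% lower. The share that fell depended on the scaling: of all probes 12044 were called lower here, 6603 with normexp and quantile normalization and 6583 in the authors' values, and 3 collagens were called lower under each of these alternatives. The median collagen changed by 1.07 on the log2 scale, with a range of -4.70 to 7.05. Of the 22 that rose, 17 exceeded 4-fold, 7 exceeded 16-fold and 4 exceeded 64-fold, with genes well above background on no array of 1 condition counted at their lower bound. *Col12a1*, measured on 1 of 4 untreated arrays, is among the 4 at its fitted value. These steps depended on the background correction. With normexp the log2 changes of those 4 were 6.03 for *Col1a2*, 5.18 for *Col3a1*, 3.94 for *Col4a6* and 3.36 for *Col12a1*. Only *Col1a2* of these then exceeded 64-fold. With genes well above background on no array of 1 condition at their bound, and genes dim in both conditions at 0, the median was 1.0. One of the 22, *Col4a3*, passed the test without being well above background on any array. In 22 collagens (55.0%) all RA arrays lay above all untreated arrays, against 13.9% of all probes with 8 values, and in 5 (12.5%) all lay below, against 23.8%. On no array were 5 of the 40 well above background, and 8 were on no untreated array, each by its brightest probe. Over every collagen probe the first share was 24.6% (15 of 61), against 29.9% of all probes. The brightest probes of *Col4a6* and *Col8a1* cleared background on no untreated and on all RA arrays, as did 1.33% of all probes. Another *Col4a6* probe cleared it on all 8 and was brighter in untreated cells. The *Col4a6* probe used is thus the brightest over all arrays through its RA values. The counts within each slide alone were 17 higher and 5 lower on slide 1 and 19 higher and 4 lower on slide 2. With slide as a block they were 22 and 6.

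**Figure D1:**
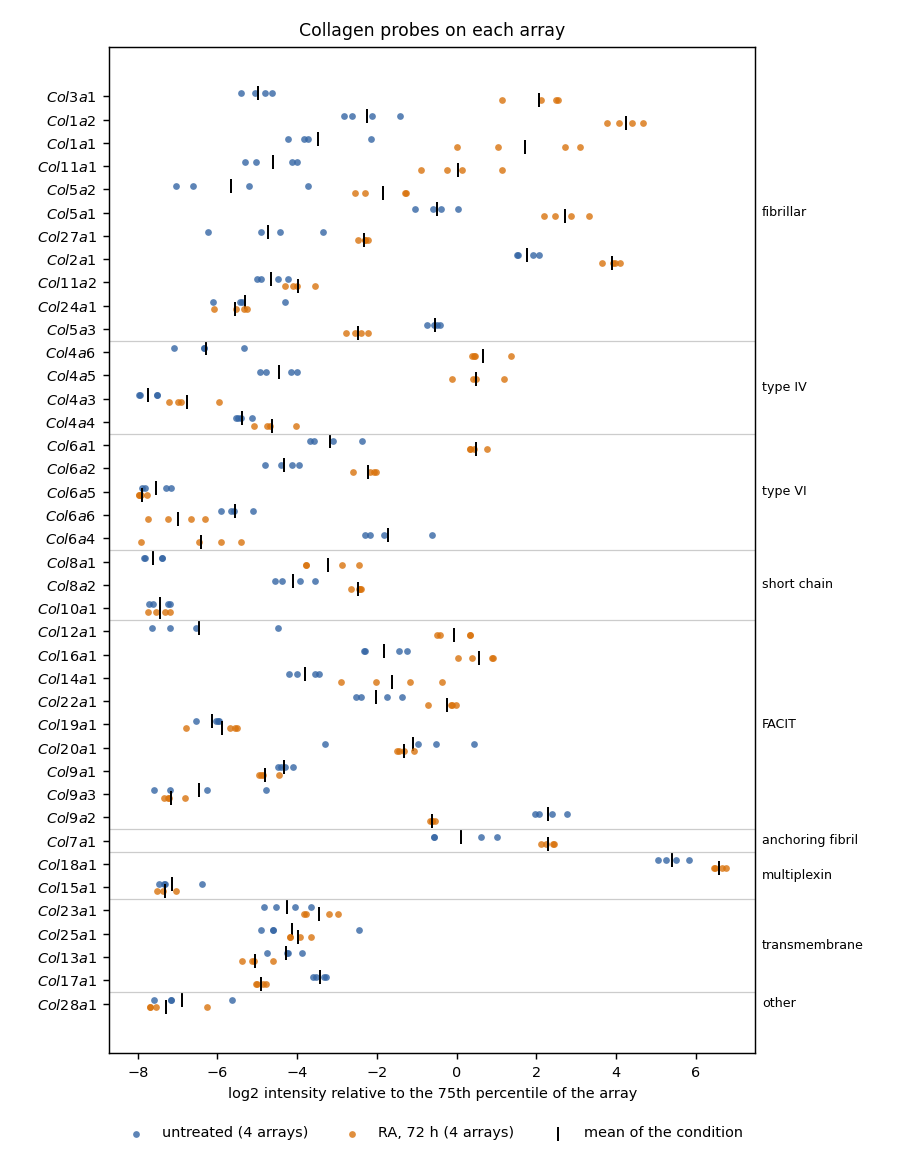
Log2 intensity of each of the 40 collagen probes, relative to the 75th percentile of its array, for 4 untreated (blue) and 4 RA (orange) arrays, ordered by class and by change. Points are arrays and black ticks are condition means. By these probes the fibrillar and type IV classes hold 8 of 11 and 4 of 4 genes called higher, and the transmembrane class none. Of the type IV genes, *Col4a3* was well above background on no array and *Col4a4* lost its call under most other settings. Another probe each of *Col4a6* and *Col23a1* differed in its call. *Col15a1* has 7 points because 1 spot was an outlier.

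Of the 11 genes of the fibrillar class 8 rose, 1 fell and 2 were not called, with a median log2 change of 3.21. Of the 11, 10 were well above background on all arrays of at least 1 condition. The strongest increases were in the chains of type I and type III collagen, the interstitial collagens of skin, vessel wall and loose connective tissue.

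*Col3a1*, the only chain of type III collagen, was read by a probe at chr1:45405589-45405648 on the plus strand of mm9. It gave -5.40, -5.06, -4.64 and -4.81 on untreated arrays 1 to 4 and 2.50, 1.13, 2.11 and 2.55 on RA arrays 1 to 4. The conditions were far apart, and 3 of the 4 untreated arrays and all RA arrays were well above background. The change was 7.05 on the log2 scale (SE 0.33, adjusted p = 2.54e-06), or 132-fold. *Col1a2*, the minor chain of type I collagen, was read at chr6:4490619-4490678 on the plus strand. It gave -2.64, -2.13, -1.43 and -2.82 in untreated cells and 4.40, 4.69, 3.78 and 4.09 after RA, and all 8 spots were well above background. Every RA array was above every untreated array, and the change was 6.49 on the log2 scale (SE 0.33, adjusted p = 3.7e-06), or 90-fold. *Col1a1*, the major chain of the same protein, was read at chr11:94813115-94813174 on the plus strand. It gave -3.82, -3.72, -2.15 and -4.22 in untreated cells and 3.1, 2.72, 0.0007 and 1.05 after RA. Its conditions did not overlap either, but RA array 3 was lower than RA array 1 by more than the RA values of *Col1a2* spanned, and the SE was the largest of the collagens that rose. The change was 5.20 on the log2 scale (SE 0.72, adjusted p = 0.000525), or 36.6-fold.

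The regions just before the starts of *Col3a1* and *Col1a2* are printed because they are the 2 fibrillar collagens with the largest increase. Each is the 250 bases before the annotated start, from RefSeq on GRCm38.p6, at chr1:45311288-45311537 and chr6:4505368-4505617, both on the plus strand. Capitals mark any of 4 short motifs on either strand: CCAAT, the NF-Y box; TATAAA, the TATA box; GGGCGG, the Sp1 box; and AGGTCA, the half-site of nuclear receptors such as the RA receptors. Matches that overlapped would each have been marked.
Col3a1: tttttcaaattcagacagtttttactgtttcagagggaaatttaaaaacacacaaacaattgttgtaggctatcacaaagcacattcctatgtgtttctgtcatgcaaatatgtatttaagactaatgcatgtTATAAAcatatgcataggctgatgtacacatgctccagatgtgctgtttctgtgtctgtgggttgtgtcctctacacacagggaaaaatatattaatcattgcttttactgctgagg
Col1a2: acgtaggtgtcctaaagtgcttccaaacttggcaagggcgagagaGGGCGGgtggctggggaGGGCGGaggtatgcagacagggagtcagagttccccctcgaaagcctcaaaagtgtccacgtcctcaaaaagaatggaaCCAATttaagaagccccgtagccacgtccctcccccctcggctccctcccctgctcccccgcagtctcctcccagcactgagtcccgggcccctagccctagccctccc
*Col3a1* held a TATAAA at position -117 from the start and no other of these motifs. *Col1a2* held a CCAAT at position -109 and GGGCGG at positions -205 and -188, so the 2 windows shared no motif. RefSeq windows of 300 bases, 250 before to 50 after the start, were found for 32 of the 40 collagens (35 windows). GGGCGG occurred in 60.0% of them, CCAAT in 31.4%, AGGTCA in 22.9% and TATAAA in 14.3%. Over all 32851 windows of the table the shares were 35.7%, 37.4%, 16.3% and 13.6%. Of the 22 collagens that rose, only 15 had such a window (17 windows). In these windows GGGCGG occurred in 76.5%, CCAAT in 35.3%, AGGTCA in 17.6% and TATAAA in 5.9%.

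Type V and type XI chains form the thin core on which fibrils of type I and II collagen grow. *Col5a1* gave -1.04, -0.39, 0.04 and -0.58 in untreated cells and 3.33, 2.88, 2.19 and 2.47 after RA. The conditions did not overlap, and the change was 3.21 on the log2 scale (SE 0.30, adjusted p = 6.16e-05), or 9.24-fold. Its partner *Col5a2* gave -7.05, -5.22, -3.72 and -6.62 and -1.30, -1.27, -2.30 and -2.56, with 2 of the 4 untreated arrays well above background. Untreated array 3 was the highest untreated array and still below all RA arrays, and the change was 3.79 on the log2 scale (SE 0.69, adjusted p = 0.00248), or 13.9-fold. Without untreated array 3 the log2 change was 4.44, and on slide 1 alone it was 3.46 and missed the threshold (adjusted p = 0.0928). *Col5a2* is the neighbour of *Col3a1* in the genome, and both rose. The remaining type V chain, *Col5a3*, went the other way. It gave -0.74, -0.42, -0.49 and -0.56 in untreated cells and -2.22, -2.41, -2.77 and -2.55 after RA, and each of the 8 arrays read it above background. All RA arrays were below all untreated arrays, and the change was -1.93 on the log2 scale (SE 0.16, adjusted p = 3.3e-05), or 3.82-fold lower.

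*Col11a1*, a chain of the cartilage type XI collagen, gave -5.30, -4.12, -4.00 and -5.02 in untreated cells and 0.14, -0.89, -0.24 and 1.15 after RA. The conditions were far apart, with 3 of 4 untreated arrays well above background, and the change was 4.65 on the log2 scale (SE 0.46, adjusted p = 7.93e-05), or 25.1-fold. It was 5.29 on slide 1 and 4.01 on slide 2. *Col2a1*, the chain of the main fibril of cartilage, was already bright in untreated cells. It was read at chr15:97806071-97806130 on the minus strand and gave 2.07, 1.52, 1.92 and 1.55 in untreated cells and 3.64, 3.93, 3.98 and 4.09 after RA. The RA arrays all lay above the untreated ones, and the change was 2.15 on the log2 scale (SE 0.18, adjusted p = 3.57e-05), or 4.43-fold. *Col27a1*, a fibrillar chain of cartilage and other tissues, gave -6.25, -4.91, -3.35 and -4.44 in untreated cells and -2.30, -2.48, -2.30 and -2.22 after RA. The RA arrays were close together and the untreated arrays, 3 of them well above background, widely spread. The change was 2.41 on the log2 scale (SE 0.51, adjusted p = 0.00559), or 5.31-fold, and it missed the threshold on slide 1 alone (log2 change 2.54, adjusted p = 0.123).

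*Col11a2* and *Col24a1* were not called. *Col11a2* gave -5.0, -4.23, -4.48 and -4.90 in untreated cells and -4.11, -3.54, -4.31 and -4.00 after RA, with overlapping conditions and a log2 change of 0.66 (SE 0.23, adjusted p = 0.0536). With the replicate number as a block it passed at an adjusted p of 0.0428. It also passed with quantile normalization (log2 change 0.95, adjusted p = 0.0126) and among the probes well above background (adjusted p = 0.0312). Leaving out untreated array 2 (0.80, adjusted p = 0.0292) or RA array 3 (0.77, adjusted p = 0.0487) gave a call too. In 13 of the 18 alternatives that gave it a value it was not called, among them normexp (0.14, adjusted p = 0.355). *Col24a1* changed by -0.24 (SE 0.37, adjusted p = 0.601), with only 1 untreated array and 2 RA arrays well above background.

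The size of several changes depended on the background correction. With the normexp correction, which keeps dim spots from going near zero, log2 changes were 5.18 for *Col3a1*, 4.30 for *Col1a1*, 3.20 for *Col11a1*, 1.80 for *Col5a2* and 1.08 for *Col27a1*. All 5 were still called, with adjusted p between 5.97e-09 and 8.46e-05. *Col1a2*, *Col2a1* and *Col5a1* moved by less than 1.5-fold under the 4 other scalings, with ranges of 6.03 to 6.63, 2.15 to 2.26 and 3.08 to 3.27.

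**Figure D2:**
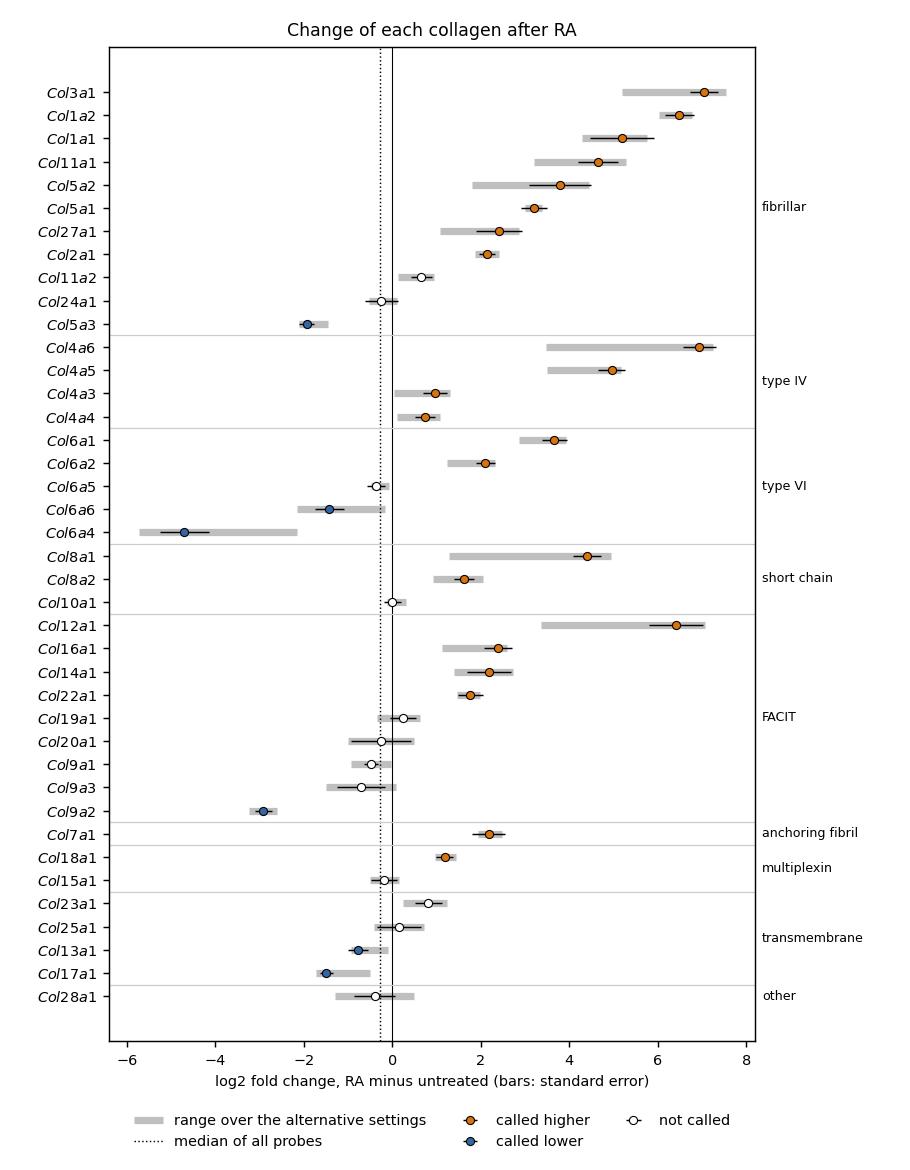
Log2 change after RA of each collagen with its standard error (black bars) and the lowest and highest value over the alternative settings (grey bars), coloured by the call; the dotted line is the median of all probes, -0.28. *Col3a1* (7.05), *Col4a6* (a fitted 6.94, with a bound of 72.8-fold in this scaling), *Col1a2* (6.49) and *Col12a1* (6.41) lie furthest right. *Col6a4* (-4.70) lies furthest left, and the grey bars are longest for *Col4a6*, *Col12a1*, *Col8a1* and *Col6a4*.

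In the type IV class all 4 genes outside the common pair were called higher by their brightest probes. The median log2 change was 2.96 (2.86 with the dim genes at their bound). *Col4a5* and *Col4a6* lie next to each other on the X chromosome and encode chains of the basement membranes of skin and kidney. *Col4a5* gave -4.01, -4.78, -4.15 and -4.92 in untreated cells and 0.41, -0.11, 0.50 and 1.18 after RA. The conditions were well apart, and the change was 4.96 on the log2 scale (SE 0.31, adjusted p = 9.1e-06), or 31.1-fold, with 3 of 4 untreated arrays well above background. *Col4a6*, read at chrX:137599990-137600049 on the minus strand, gave -6.35, -6.34, -5.33 and -7.10 in untreated cells and 0.38, 0.44, 0.46 and 1.36 after RA. For this probe no untreated array was well above background and all RA arrays were. By this probe, and in the scaling used here, its increase was at least 72.8-fold (adjusted p = 4.96e-06). The bound was set against the lowest signal well above background on each untreated array. With the normexp correction the log2 changes were 3.50 for *Col4a5* and 3.94 for *Col4a6*, the latter below that bound.

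A second probe of *Col4a6* behaved differently. It lies at chrX:137601433-137601491 on the minus strand and was read above background on each of the 8 arrays, with means of -3.16 ± 0.35 in untreated cells and -3.13 ± 0.21 after RA (SD, n = 4). Its log2 change was 0.03 (SE 0.21, adjusted p = 0.92). In untreated cells this second probe was the brighter, with a mean of -3.16 against -6.28 for the probe used. The probe used was therefore picked as the brightest over all arrays through its RA values, and its rise is not independent of that choice. Taking the mean of both probes gave a log2 change of 3.48. The first 30 bases of each are printed because the call for the gene rests on which probe is read; they share the annotated transcript, at positions 5102 and 6544.
Col4a6 probe at 5102: cagtccctaatctcccctggctcgtgtctt
Col4a6 probe at 6544: ggcaaagcataacaagtacattctgagctc

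The starts of *Col4a5* and *Col4a6* face away from each other and lie 1343 bases apart in the RefSeq annotation of GRCm38.p6. The 250 bases before each start are shown because both genes rose and share this stretch of the chromosome. They lie at chrX:141475169-141475418 on the plus strand (*Col4a5*) and chrX:141474077-141474326 on the minus strand (*Col4a6*), with the same motifs in capitals.
Col4a5: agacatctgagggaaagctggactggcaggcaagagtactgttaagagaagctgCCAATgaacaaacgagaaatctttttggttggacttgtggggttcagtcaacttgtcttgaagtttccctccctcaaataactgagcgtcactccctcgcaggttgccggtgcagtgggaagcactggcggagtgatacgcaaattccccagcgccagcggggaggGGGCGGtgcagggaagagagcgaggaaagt
Col4a6: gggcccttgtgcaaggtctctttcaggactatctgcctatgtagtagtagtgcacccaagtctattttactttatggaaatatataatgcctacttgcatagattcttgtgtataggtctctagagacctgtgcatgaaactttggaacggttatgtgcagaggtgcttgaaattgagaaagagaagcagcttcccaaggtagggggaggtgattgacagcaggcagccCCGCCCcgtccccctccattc
*Col4a5* held CCAAT at position -196 and GGGCGG at position -30. *Col4a6* held GGGCGG on the opposite strand at position -21 and no other of the motifs.

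*Col4a3* and *Col4a4*, another neighbouring pair, encode chains of the kidney filter. *Col4a4* gave -5.52, -5.47, -5.14 and -5.41 in untreated cells and -4.68, -5.08, -4.76 and -4.03 after RA, and its conditions were separate but close, with 2 of 4 untreated arrays well above background. The change was 0.75 on the log2 scale (SE 0.23, adjusted p = 0.0294), or 1.68-fold, and the call was lost under most other settings: with normexp the log2 change was 0.12 (adjusted p = 0.445). It was also lost without untreated array 1, 2 or 4 and without RA array 1, 3 or 4, where adjusted p ran from 0.0503 to 0.0708. *Col4a3* was well above background on no array. It passed the test (log2 difference 0.96, SE 0.28, adjusted p = 0.0235), but with no spot well above background no fold is given. The call was lost in 7 of the 17 alternatives that gave it a value. With normexp the log2 difference was 0.034, with normexp and quantile normalization 0.24, and in the authors' values 0.23. On slide 1 and slide 2 alone the adjusted p was 0.091 and 0.229. Without untreated array 2 it was 0.0579 and without untreated array 3 it was 0.0549. The common pair, which lies outside the 40, gave -0.36, 0.84, -0.17 and -0.06 for *Col4a1* in untreated cells and 4.11, 3.92, 3.69 and 3.70 after RA. *Col4a2* gave -1.11, 0.22, -0.97 and -0.81 and then 3.54, 3.31, 3.26 and 3.30. Their log2 changes were 3.79 (SE 0.26) and 4.02 (SE 0.28), values between those of *Col4a4* and *Col4a5*.

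In the type VI class 2 of 5 genes rose, 2 fell and 1 was not called, with a median log2 change of -0.36 (0 with the dim genes at their bound). *Col6a1* and *Col6a2* are neighbours and encode chains of the classical type VI filament. *Col6a1* gave -3.57, -3.68, -2.38 and -3.10 in untreated cells and 0.77, 0.35, 0.34 and 0.45 after RA. *Col6a2* gave -4.81, -4.40, -3.97 and -4.12 and -2.08, -2.60, -2.03 and -2.16. Neither gene's conditions overlapped, and both probes were above background throughout. The change of *Col6a1* was 3.66 on the log2 scale (SE 0.28, adjusted p = 2.4e-05), or 12.6-fold. That of *Col6a2* was 2.11 on the log2 scale (SE 0.22, adjusted p = 0.000112), or 4.31-fold. With normexp the log2 changes were 2.86 and 1.23.

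The later type VI chains, *Col6a4*, *Col6a5* and *Col6a6*, lie side by side at another locus and can take the place of the α3 chain. *Col6a4* gave -2.29, -1.82, -0.63 and -2.18 in untreated cells and -6.46, -5.42, -5.90 and -7.92 after RA, with 4 untreated arrays and 1 RA array well above background. All RA arrays were far below all untreated arrays. The change was -4.70 on the log2 scale (SE 0.56, adjusted p = 0.000229), or 25.9-fold lower. It was -5.73 on slide 1, -3.66 on slide 2, -2.31 with normexp and -3.39 as the mean of both probes. This was the largest decrease of the 40 here, but with normexp, with normexp and quantile normalization and in the authors' values *Col9a2* fell more (-2.79, -2.74 and -2.72). The other probe of the gene was called lower as well, at least 1.54-fold (adjusted p = 0.00172), with 2 untreated arrays and no RA array well above background. In the scaling used here *Col6a6* fell at least 1.33-fold (adjusted p = 0.00754), with 1 untreated array and no RA array well above background. On slide 2 alone *Col6a6* missed the threshold (log2 change -0.69, adjusted p = 0.182). It was also not called with normexp (-0.40), with normexp and quantile normalization (-0.17) or in the authors' values (-0.16), where the change was under 1.5-fold, and the mean of its probes gave -0.75. *Col6a5* was well above background on no array (log2 difference -0.36, adjusted p = 0.188).

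Among the short chain collagens 2 of 3 rose. *Col8a1*, a chain of the network under the endothelium of vessels and cornea, gave -7.39, -7.82, -7.84 and -7.40 in untreated cells and -2.45, -3.77, -3.78 and -2.87 after RA. No untreated array and all RA arrays were well above background, which makes the increase at least 5.39-fold in the scaling used here (adjusted p = 1.68e-05). *Col8a2*, its partner chain, gave -4.56, -3.94, -4.39 and -3.56 in untreated cells and -2.44, -2.64, -2.43 and -2.41 after RA. The conditions did not overlap, and the change was 1.63 on the log2 scale (SE 0.23, adjusted p = 0.00052), or 3.1-fold. With normexp the log2 changes were 1.29 for *Col8a1* and 0.91 for *Col8a2*. *Col10a1*, the marker of hypertrophic cartilage, was well above background on no array.

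In the FACIT class 4 of 9 genes rose, 1 fell and 4 were not called, with a median log2 change of 0.25 (0 with the dim genes at their bound). *Col12a1*, which coats type I fibrils in tendon and other dense tissue, gave -6.55, -7.64, -4.49 and -7.20 in untreated cells and 0.34, -0.41, -0.49 and 0.33 after RA. One untreated array, number 3, was well above background, and it was the highest untreated value. All RA arrays were nevertheless far above it, and the change was 6.41 on the log2 scale (SE 0.62, adjusted p = 7.02e-05), or 85.2-fold. The other 3 untreated arrays were not well above background, so the size is set mostly against such values. Without untreated array 3 the log2 change was 7.07, and with normexp it was 3.36.

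*Col14a1*, a close relative on the same fibrils, gave -3.55, -4.00, -3.44 and -4.21 in untreated cells and -1.16, -2.90, -2.02 and -0.38 after RA. The RA arrays were widely spread, from RA array 2 to RA array 4, but did not overlap with the untreated ones, and the change was 2.19 on the log2 scale (SE 0.49, adjusted p = 0.00724), or 4.56-fold. Its second probe rose less, by 0.88 (adjusted p = 0.0412), the mean of both was 1.53, and normexp gave 1.41. *Col16a1*, found in cartilage and skin fibrils, gave -2.31, -1.45, -1.25 and -2.32 in untreated cells and 0.92, 0.90, 0.04 and 0.39 after RA. No array crossed between the conditions, and the change was 2.39 on the log2 scale (SE 0.32, adjusted p = 0.000397), or 5.25-fold. Another probe, with 1 untreated and all RA arrays well above background, gave 1.89, and 2 more, well above background on no array, were not called. The mean of the 4 probes gave 1.12. *Col22a1*, a collagen of tissue junctions such as that of muscle and tendon, gave -2.39, -1.74, -1.38 and -2.53 in untreated cells and -0.15, -0.72, -0.01 and -0.11 after RA. The conditions were again apart, and the change was 1.76 on the log2 scale (SE 0.29, adjusted p = 0.00127), or 3.39-fold.

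No chain of type IX collagen, which coats the fibrils of cartilage, was called higher. *Col9a2* was bright in untreated cells at 2.07, 2.77, 1.97 and 2.40 and gave -0.62, -0.67, -0.62 and -0.54 after RA. Every RA array was below every untreated array, the RA values were close together, and the change was -2.91 on the log2 scale (SE 0.19, adjusted p = 1.11e-05), or 7.53-fold lower. *Col9a1* changed by -0.48 (SE 0.17, adjusted p = 0.0511) and *Col9a3* by -0.70 (SE 0.54, adjusted p = 0.303). Only 1 untreated array and no RA array read *Col9a3* well above background, so no change is read from it. Without RA array 4 *Col9a1* passed (-0.59, adjusted p = 0.0288). *Col20a1* and *Col19a1* were not called, at -0.25 (SE 0.68) and 0.25 (SE 0.30), and *Col19a1* was well above background on no array. The untreated values of *Col20a1* were -0.51, 0.45, -3.31 and -0.96, with array 3 far below the rest. Without that array it fell by 0.99 (adjusted p = 0.0435).

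*Col7a1*, the chain of the anchoring fibril, gave -0.58, 0.62, 1.02 and -0.57 in untreated cells and 2.41, 2.44, 2.11 and 2.25 after RA. The RA arrays were tight and above all untreated arrays, and the change was 2.18 on the log2 scale (SE 0.37, adjusted p = 0.00154), or 4.53-fold. On slide 1 alone it missed the threshold (2.11, adjusted p = 0.0548). *Col18a1*, whose end fragment is the angiogenesis inhibitor endostatin, was bright on all 8 arrays. It gave 5.26, 5.82, 5.06 and 5.50 in untreated cells and 6.47, 6.76, 6.49 and 6.67 after RA. All RA arrays lay above all untreated arrays, and the change was 1.18 on the log2 scale (SE 0.19, adjusted p = 0.00114), or 2.27-fold. Its second probe gave 1.11, and on slide 2 alone the first missed the threshold (0.96, adjusted p = 0.0819). The other multiplexin, *Col15a1*, was well above background only on RA array 4, where its spot was an outlier and was left out. Over the other 7 arrays the log2 difference was -0.18 (adjusted p = 0.624).

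None of the 4 transmembrane collagens was called higher by its brightest probe, and 2 were called lower. *Col17a1*, a part of the hemidesmosomes that fix epithelia to their basement membrane, gave -3.27, -3.61, -3.32 and -3.54 in untreated cells and -5.03, -4.87, -4.79 and -5.0 after RA. The conditions were tight and separate, and the change was -1.49 on the log2 scale (SE 0.14, adjusted p = 7.06e-05), or 2.8-fold lower. After normexp with quantile normalization, and in the authors' log2 values, its change was -0.50 and under 1.5-fold. *Col13a1*, a collagen of cell-matrix contacts and the neuromuscular junction, gave -4.75, -4.27, -3.87 and -4.22 in untreated cells and -5.07, -4.60, -5.13 and -5.39 after RA. The conditions overlapped, and the change was -0.77 on the log2 scale (SE 0.23, adjusted p = 0.0288), or 1.71-fold lower. Its call was lost with each of the 4 other scalings (log2 change -0.45 to -0.10) and without untreated array 2, 3 or 4 or RA array 1, 3 or 4 (adjusted p 0.0576 to 0.0809). *Col23a1* changed by 0.82 (SE 0.30, adjusted p = 0.0625) and *Col25a1* by 0.15 (SE 0.50, adjusted p = 0.816). Both passed without untreated array 3, at 1.03 (adjusted p = 0.0235) and 0.71 (adjusted p = 0.0173). *Col23a1* also passed with quantile normalization (1.08, adjusted p = 0.0324), among the probes well above background (adjusted p = 0.0377) and with the mean of all its probes (1.24, adjusted p = 0.00561). In 14 of the 18 alternatives that gave it a value *Col23a1* was not called, among them normexp (0.255, adjusted p = 0.158). *Col28a1*, outside the classes, was well above background on no array.

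Across the family 14 genes had more than 1 probe, and in 7 of these more than 1 probe was well above background on all arrays of a condition. Such bright probes differed in their call in 2 genes. One was *Col4a6*, as described. The other was *Col23a1*, where a dimmer probe rose by 2.05 on the log2 scale (SE 0.36, adjusted p = 0.00189) while the brightest was not called. The remaining 26 genes had a single probe.

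**Figure D3:**
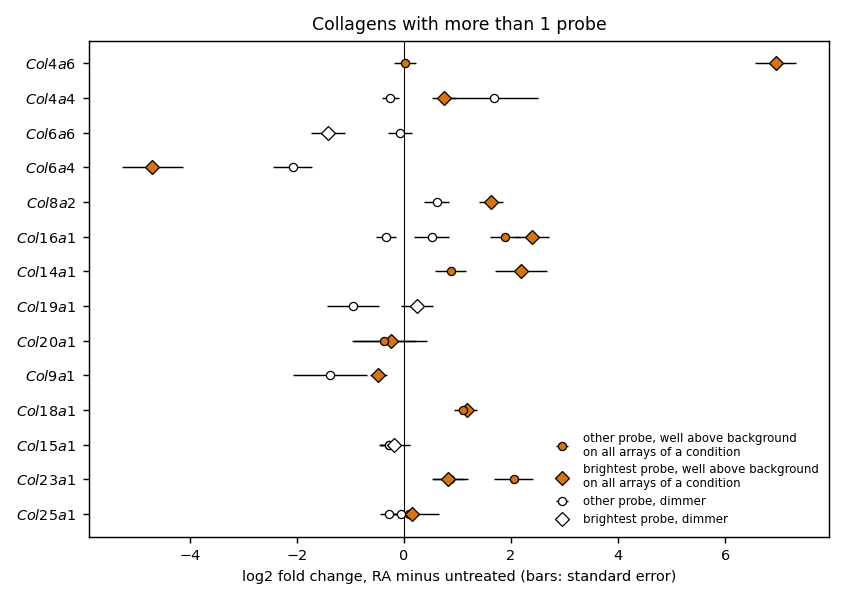
Log2 change after RA, with its standard error, of every probe of the 14 collagens that have more than 1 probe; diamonds are the brightest probe of the gene and filled symbols are well above background on all arrays of a condition. The filled symbols of *Col4a6* lie at 6.94 and 0.03, and those of *Col23a1* at 0.82 and 2.05.

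Of the 40 collagens, 26 were called and well above background on all arrays of a condition, 21 of them higher and 5 lower. Their SD between replicates was 0.14 to 1.51 in untreated cells (median 0.45) and 0.05 to 1.45 after RA (median 0.41). Untreated array 3 was the highest untreated array for 18 of these 26 genes and for 25 of the 39 collagens with 8 values. The 40 hold 7 pairs of neighbouring genes. By their brightest probes both genes were called higher in 4 pairs: *Col3a1* with *Col5a2*, *Col4a3* with *Col4a4*, *Col4a5* with *Col4a6* and *Col6a1* with *Col6a2*. Of all 40 collagens 55.0% were called higher, and the share among other neighbouring genes was not computed. *Col4a3* was well above background on no array, *Col4a4* lost its call under most other settings, and a second *Col4a6* probe was not called. In 2 pairs, *Col6a4* with *Col6a5* and *Col6a5* with *Col6a6*, 1 gene was called lower and the other was not called. In the pair of *Col9a1* and *Col19a1* neither was called.

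Collagen chains are hydroxylated, folded, secreted, trimmed and cross-linked by dedicated enzymes. Of 32 such genes 16 rose and 3 fell, with a median log2 change of 0.69, against 12.9% and 21.6% of all probes. In this scaling the share that fell was below that of all probes. With normexp and quantile normalization 3 of the 32 were still called lower. Over all probes the number called lower was then 6603 instead of 12044. *Serpinh1*, which encodes the collagen chaperone Hsp47, rose from a mean of 2.25 ± 0.19 to 5.58 ± 0.13 (SD, n = 4), 3.33 on the log2 scale (SE 0.15, adjusted p = 2.28e-06), or 10.1-fold. *P3h2*, a prolyl 3-hydroxylase listed as *Leprel1* on the array, rose from a mean of -5.38 ± 0.74 to -0.83 ± 0.12 (SD, n = 4), 4.55 on the log2 scale (SE 0.33, adjusted p = 1.73e-05), or 23.4-fold. Only 1 of its 4 untreated arrays was well above background, so the size is set mostly against values that were not. *Bmp1*, the protease that removes the C-terminal propeptide of fibrillar procollagens, rose from a mean of -0.91 ± 0.60 to 2.93 ± 0.17 (SD, n = 4), 3.84 on the log2 scale (SE 0.28, adjusted p = 1.87e-05), or 14.3-fold. *Loxl2*, a lysyl oxidase that cross-links chains, rose from a mean of -1.0 ± 0.60 to 2.48 ± 0.40 (SD, n = 4), 3.48 on the log2 scale (SE 0.32, adjusted p = 5.46e-05), or 11.1-fold. *Colgalt2*, a collagen galactosyltransferase listed as *Glt25d2*, cleared background on none of the untreated arrays and rose at least 2.29-fold (adjusted p = 2.82e-05).

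The 3 that fell work on the ends of procollagen. *Pcolce2* and *Pcolce* enhance the cleavage by *Bmp1*, and *Adamts14* removes N-terminal propeptides. *Pcolce2* fell from a mean of 2.23 ± 0.14 to -1.39 ± 0.53 (SD, n = 4), -3.62 on the log2 scale (SE 0.25, adjusted p = 1.45e-05), or 12.3-fold lower. *Adamts14* fell from a mean of 2.76 ± 0.26 to -0.43 ± 0.48 (SD, n = 4), -3.19 on the log2 scale (SE 0.25, adjusted p = 2.67e-05), or 9.13-fold lower. *Pcolce* fell from a mean of 4.99 ± 0.29 to 3.95 ± 0.31 (SD, n = 4), -1.04 on the log2 scale (SE 0.21, adjusted p = 0.0045), or 2.05-fold lower. *Adamts2*, which cleaves the same end as *Adamts14*, rose by 2.17 on the log2 scale (SE 0.44, adjusted p = 0.00438). *Loxl1*, *Loxl3* and *Loxl4* rose too, while *Lox* itself was well above background on no array.

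Of 26 receptors and partners of collagen 11 rose and 5 fell, with a median log2 change of 0.47, against 12.9% and 21.6% of all probes. In this scaling the share that fell was near that of all probes. Among 10 receptors 4 rose and 1 fell, and among 16 matrix partners 7 rose and 4 fell. The small proteoglycans decorin and lumican, which bind fibrils and set their width, led the list. *Dcn* rose from a mean of -4.69 ± 0.69 to 3.38 ± 0.23 (SD, n = 4), 8.07 on the log2 scale (SE 0.32, adjusted p = 1.8e-06), or 269-fold. *Lum* cleared background on none of the untreated arrays and rose at least 21.1-fold (adjusted p = 4.68e-06). *Postn*, encoding the fibril-binding periostin, rose at least 4.68-fold from the same position (adjusted p = 5.11e-05). *Mrc2*, the receptor that takes up collagen for breakdown, rose from a mean of -4.66 ± 0.68 to -0.63 ± 0.03 (SD, n = 4), 4.03 on the log2 scale (SE 0.31, adjusted p = 2.14e-05), or 16.3-fold, with 3 of 4 untreated arrays well above background. *Itga11*, the integrin chain for fibrillar collagen, rose from a mean of -5.16 ± 0.20 to -1.14 ± 0.45 (SD, n = 4), 4.02 on the log2 scale (SE 0.23, adjusted p = 6.43e-06), or 16.2-fold, with 2 of 4 untreated arrays well above background.

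In the other direction *Vwf*, a collagen-binding protein of blood and endothelium, fell from a mean of 1.35 ± 0.47 to -3.57 ± 0.62 (SD, n = 4), -4.91 on the log2 scale (SE 0.34, adjusted p = 1.4e-05), or 30.2-fold lower. *Acan*, the cartilage proteoglycan, fell by 1.56 on the log2 scale (SE 0.20) and *Tnxb*, a fibril-associated tenascin, by 1.15 (SE 0.23). *Ogn*, another small proteoglycan, fell at least 2.46-fold (adjusted p = 0.0184), and *Lair1*, an inhibitory receptor for collagen, fell by 0.65 (SE 0.22, adjusted p = 0.0427). *Fn1*, fibronectin, was bright in both conditions and was not called (-0.68, SE 0.33, adjusted p = 0.139). Only 2 of the 26 genes were called lower on slide 2 alone and 7 were called higher there.

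**Figure D4:**
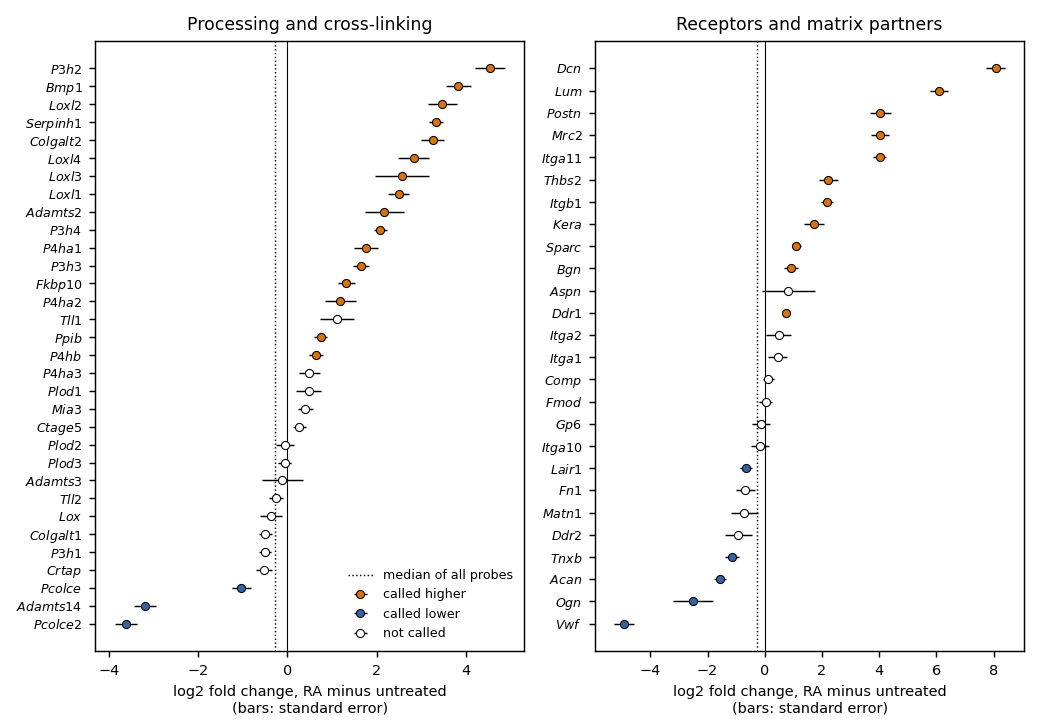
Log2 change after RA, with its standard error, of 32 genes of collagen processing and cross-linking (left) and 26 receptors and matrix partners (right), coloured by the call; the dotted line is the median of all probes, -0.28. *P3h2* (4.55, with 1 of 4 untreated arrays well above background) and *Dcn* (8.07) lead the lists, and *Pcolce2* (-3.62) and *Vwf* (-4.91) close them.

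Markers of several cell types changed in the same cultures. Of 9 mesenchyme and fibroblast markers 7 rose, and their summed linear level, relative to the 75th percentile, went from 6.30 to 8.46 on untreated arrays to 75.4 to 113 on RA arrays. Most of this sum is *Vim*, and without it the levels were 1.49 to 2.46 and then 5.52 to 8.69. *Thy1* and *S100a4* were not called. All 4 smooth muscle markers rose, with sums of 2.17 to 3.91 and then 255 to 468 (without *Tagln* 0.757 to 1.89 and then 88.6 to 241). All 8 markers of primitive and parietal endoderm rose, with sums of 39.8 to 53.6 and then 96.9 to 133 (without *Lamb1* 7.92 to 22.3 and then 38.0 to 58.2). *Pdgfra* is in both this list and that of mesenchyme, so 1 probe is counted in both. Of 4 visceral endoderm markers 2 rose (sums 0.486 to 0.988 and then 2.35 to 8.04, without *Amn* 0.024 to 0.088 and then 1.18 to 6.79) and *Apoa1* was well above background on no array. The defining cartilage markers were mixed. *Sox9* rose at least 43.5-fold and *Acan* fell, while *Matn1* and *Comp* were not called and *Cnmd* was well above background on no array (sums 0.53 to 0.864 and then 0.888 to 2.14, without *Comp* 0.21 to 0.44 and then 0.478 to 1.66).

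None of 4 bone markers was called, and *Runx2* and *Ibsp* were well above background on no array (sums 0.049 to 0.102 and then 0.045 to 0.085, without *Sp7* 0.028 to 0.062 and then 0.024 to 0.059). Of 4 endothelial markers 2 fell, *Pecam1* and *Tek*, and *Cdh5* was well above background on no array (sums 2.77 to 3.79 and then 1.73 to 2.33, without *Kdr* 0.941 to 1.92 and then 0.147 to 0.293). Of 5 neural markers *Nes* rose and *Tubb3* fell (sums 6.05 to 9.66 and then 10.4 to 11.8, and without *Nes* 4.35 to 7.68 and then 1.61 to 2.25). A sum over probes weights the brightest most. The part of these cell types in the collagen changes was not tested.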

How the data were processed

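Expression was measured on 8 Agilent SurePrint G3 mouse arrays, 4 of untreated E14 ES cells and 4 of cells after 72 h of RA, in 1 colour. The authors deposited the Feature Extraction (version 10.7.3.1, build mm9) output of each array, with a processed intensity per spot corrected for background but not scaled between arrays. The authors also deposited log2 values, alike in distribution on all arrays, for which the normalization is not given in the sources used here. Their methods state as thresholds 0.05 for the FDR and more than 1.5-fold for the change. Flag columns of 0 or 1, deposited in the same output, mark outlier, saturated and well-above-background spots.

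The log2 of the processed intensity minus the 75th percentile of each array was averaged over the spots of a probe, without 3671 control spots and 124 to 145 outlier spots per array, which left 55681 probes. Conditions were compared with lmFit and eBayes (limma 3.58.1, R 4.3.3) and Benjamini-Hochberg adjustment over all probes. On simulated data with 200 of 55681 probes changed by 2 on the log2 scale, 140 were recovered with 7 false calls. The number of arrays limits the precision. Where a probe was well above background on no array of 1 condition, "at least" folds set the other condition's mean against the lowest signal well above background on each array, or the probe's own signal where higher. Such folds hold for the scaling used here. With normexp the changes of *Col4a6*, *Col8a1* and *Col6a6* were smaller than these bounds.

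Named were the collagens called and well above background on all arrays of a condition, the other collagens by class, and up to 5 genes rising and 5 falling most of each further list. Genes outside this rule (the uncalled collagens with values, *Adamts2*, *Loxl1*, *Loxl3*, *Loxl4*, *Lox*, *Fn1* and the cell type markers) were given for completeness or chosen after their values were seen. The members and lists were chosen with earlier results of these data known. All 40 collagen symbols were found in the RefSeq gene table. Alternatives were quantile normalization, normexp with an offset of 50, the authors' log2 values, a filter on dim probes, the mean of all probes of a gene, a 2-fold limit, slide as a block or alone, the replicate number as a block, and leaving out each array. Each of the 2 slides held 2 arrays of each condition. The labels give both conditions replicate numbers 1 to 4. Deviations of same-numbered arrays from their condition means correlated at 0.186, 0.189, 0.104 and 0.151 over 27493 probes, each over 0.1, while other pairs reached 0.142. The reported values come from the unpaired fit, and the block was run as an alternative.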

Additional observations from a re-analysis of the deposited data

Results flagged for a closer look

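In 3 of 56 groups of 4 arrays examined, 1 array stood apart from the other 3 by Dixon's test, about the 2.8 that chance gives. RA array 4 read 1.36 for *Col4a6*, with the other RA arrays at 0.38 to 0.46. RA array 2 read -2.64 for *Col8a2*, with the others at -2.44 to -2.41. RA array 1 read 3.54 for *Col4a2*, with the others at 3.26 to 3.31. In each case all RA arrays still lay above all untreated arrays.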

How the results depend on the processing

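Of the 28 collagens called, 19 kept their call and all 28 kept their direction under each alternative run. *Col13a1*, *Col17a1*, *Col18a1*, *Col27a1*, *Col4a3*, *Col4a4*, *Col5a2*, *Col6a6* and *Col7a1* lost the call under at least 1. The count of collagens called higher was 20 to 24 over the other scalings, and 21 to 23 when 1 array was left out, with 5 to 6 called lower. A 2-fold limit gave 20 higher and 5 lower. With normexp and quantile normalization, and likewise in the authors' log2 values, 3 collagens were called lower. Of receptors and partners 3 were called lower with quantile normalization and 2 with each of those 2 scalings, and 10 to 11 higher and 4 to 5 lower when 1 array was left out. On slide 2 alone 7 were higher and 2 lower. Processing genes gave 15 to 16 higher and 3 to 4 lower without 1 array. Over the whole array, probes called lower numbered 6603 with normexp and quantile normalization and 6583 in the authors' values, against 12044. There were 4206 higher and 6348 lower on slide 1, and 3964 and 5453 on slide 2. Leaving out 1 array gave 6549 to 7281 higher and 10601 to 12676 lower. With the replicate number as a block, 23 collagens were higher and 6 lower, *Col11a2* being the only call that changed among the 40; 17 processing genes were higher and 3 lower, and 10 receptors and partners were higher and 5 lower. The split of higher to lower calls over the whole array moved from 7196 to 12044 to 8152 to 8704 with quantile normalization. Values near background limit the dim collagens: 5 were well above background on no array, and 8 on no untreated array, each by its brightest probe.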
